A study of Homo sapiens with 12 samples.

Results

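Expression of 37 genes for subunits of the proteasome was compared across 4 groups of OE33 cells, a line of human esophageal adenocarcinoma. The genes were chosen by symbol, and all 37 were found among the 57500 genes of the count table and were among the 15805 with enough counts to test. They comprise 7 genes of the alpha ring and 7 constitutive genes of the beta ring of the 20S core, 6 ATPases and 11 other subunits of the 19S regulatory particle, the interferon-inducible immunoproteasome genes PSMB8, PSMB9, PSMB10, PSME1 and PSME2 (5 genes), and PSME3, which forms the 11S gamma activator. Each group had 3 libraries of polyadenylated RNA, which the series' design text describes as independent biological replicates. Parental cells were untreated. The rABS cells were the survivors of a 15-day course in which they met bile salts at 200 µM and pH 5.5 for 20 minutes each day. The other groups, rABS+shCtrl and rABS+shAPE1, were such survivors after stable transduction with a non-targeting hairpin or with a hairpin against APE1, the DNA repair enzyme encoded by APEX1. All 4 groups derive from 1 cell line, the untreated cells carried no hairpin, and the labels name no hairpin sequence.

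The 26S proteasome degrades proteins that carry ubiquitin chains. Its 19S cap binds the chain, removes it, unfolds the substrate with a ring of ATPases and threads it into the 20S core, where PSMB6, PSMB7 and PSMB5 carry the caspase-like, trypsin-like and chymotrypsin-like sites. After interferon gamma, PSMB9, PSMB10 and PSMB8 take the places of these 3 subunits in newly built particles, and PSME1 and PSME2 form the PA28 activator, which together favour peptides suited to MHC class I. Transcription of the constitutive genes is raised as a group by NFE2L1 when proteasome activity is short, and that of the inducible genes by interferon signalling and IRF1.

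Library totals ran from 15736087 to 23010377 counts, and the lowest correlation between libraries of a group was 0.987. APEX1 was at 62.0, 56.5 and 60.9 CPM (counts relative to library size, the size scaled by TMM factors) with the control hairpin and at 4.42, 4.5 and 5.88 CPM with the APE1 hairpin, 12.2-fold lower (edgeR adjusted p = 3.75e-22). APEX1 was also 1.5-fold higher in rABS than in Parental (edgeR adjusted p = 2.23e-07). All 5 epithelial markers were expressed in every group, with summed levels of 9030 to 15750 CPM. The 10 immune cell markers summed to 5.78 to 11.8 CPM per library, with 3 to 5 of them at 0 in all libraries of a group. Fibroblast markers summed to 22.5 to 29.5 CPM in Parental and 3.47 to 9.46 CPM elsewhere. Nearly all of this sum was COL1A1, at 22.5 to 29.4 CPM in Parental. COL1A2, COL3A1, PDGFRB and DCN were each at 0.1875 CPM or less in every library. Endothelial markers summed to at most 0.889 CPM. The part of cells with such markers in the results below was not tested.

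Most constitutive subunits were at higher levels in the survivors of repeated exposure than in untreated cells, most often in the 19S cap. Of the 37 genes, 25 were higher in rABS than in Parental and 2 were lower (edgeR adjusted p under 0.05), whereas 29.9% of all genes tested were called higher and 29.9% lower. The median log2 fold change of the 37 genes was 0.45, and that of all genes tested was -0.01. Outside the immunoproteasome 24 of 32 genes were higher and 0 lower by edgeR (25 and 0 at an unadjusted p under 0.05), and DESeq2 and limma-voom also called 0 lower. By class, 15 of 17 genes of the 19S cap rose, with a median of 0.64, and 8 of 14 constitutive genes of the 20S core rose, with a median of 0.31. Of the 5 immunoproteasome genes 1 rose, 2 fell and 2 were not called, with a median of -0.02. The difference between these classes was not itself tested. Exposure, selection of the surviving cells and time in culture cannot be told apart in rABS against Parental. In bulk RNA, a change in how many cells express a gene and a change in RNA per cell cannot be told apart.

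**Figure D1:**
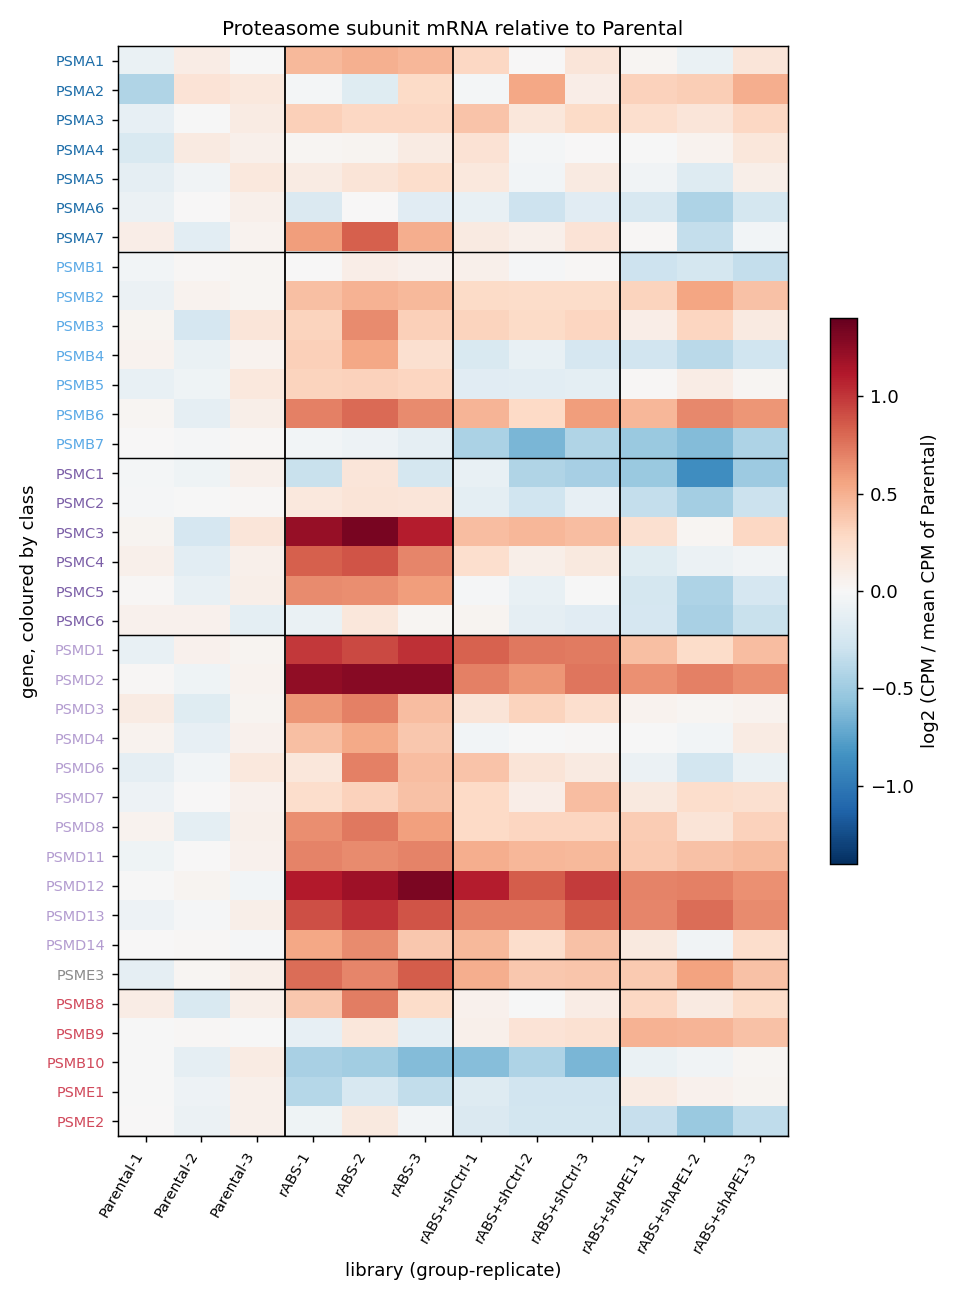
Heat map of the 37 subunit genes (vertical axis, grouped by class) in the 12 libraries (horizontal axis). The colour is the log2 ratio of each library's CPM to the mean of the 3 Parental libraries. The rABS columns are red for most genes of the 19S cap, while PSMB10 and PSME1 are blue in rABS and rABS+shCtrl and near 0 in rABS+shAPE1.

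All 11 non-ATPase subunits of the 19S cap rose in rABS. PSMD2, the docking site for ubiquitin-like domains, was at 268, 255 and 274 CPM in Parental and at 630, 641 and 640.5 CPM in rABS. The groups were far apart and the rABS libraries were nearly equal, a 2.40-fold rise (log2 fold change 1.26 with SE 0.06, edgeR adjusted p = 1.34e-17). PSMD12, a subunit of the lid, rose from 31.4, 32.5 and 30.8 CPM to 68.0, 72.0 and 78.5 CPM, 2.31-fold (edgeR adjusted p = 5.98e-14). PSMD1, the scaffold of the base, rose from 84.8, 94.4 and 93.4 CPM to 180, 172 and 185 CPM, 1.97-fold (edgeR adjusted p = 1.42e-13). The lowest rABS library of each of these genes lay well above the highest Parental one. The other 8 rose between 1.25-fold (PSMD7, the partner of the deubiquitinase) and 1.91-fold (PSMD13, a lid subunit). They include the ubiquitin receptor PSMD4, which rose 1.36-fold, and the deubiquitinase PSMD14, which rose 1.45-fold.

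Among the 6 ATPases of the base, 4 rose and 2 were not called. PSMC3 was at 37.3, 30.7 and 40.6 CPM in Parental and at 84.5, 90.7 and 77.7 CPM in rABS, 2.33-fold higher (edgeR adjusted p = 5.20e-13). PSMC4 rose from 56.8, 48.6 and 56.5 CPM to 96.5, 99.4 and 86.7 CPM, 1.75-fold (edgeR adjusted p = 3.07e-10). PSMC5 rose from 75.0, 68.8 and 78.8 CPM to 118, 117 and 112 CPM, 1.56-fold (edgeR adjusted p = 7.69e-09). In all 3 genes every rABS library exceeded every Parental library. PSMC2 rose 1.13-fold (edgeR adjusted p = 0.0284), a call lost without rABS replicate 2 (adjusted p = 0.0647) or rABS replicate 3 (adjusted p = 0.0572). It was also lost without a filter on low counts (adjusted p = 0.0686). PSMC1 and PSMC6 had log2 fold changes of -0.12 and 0.03. The RNA of the 6 subunits of this ring, which are assembled in equal number, thus ranged from 1.08-fold lower (PSMC1, not called) to 2.33-fold higher.

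Of the 7 genes of the alpha ring, which forms the gate of the 20S core, 3 rose and 4 were not called, with a median log2 fold change of 0.18. PSMA7 was at 78.5, 66.8 and 76.1 CPM in Parental and at 111, 132 and 105 CPM in rABS, 1.57-fold higher (edgeR adjusted p = 1.75e-07). PSMA1 rose from 78.3, 89.8 and 83.3 CPM to 115, 118 and 115 CPM, 1.38-fold (edgeR adjusted p = 5.81e-06). PSMA3 rose from 42.9, 46.2 and 50.1 CPM to 58.4, 56.9 and 56.8 CPM, 1.24-fold (edgeR adjusted p = 0.00198). These 3 genes were named for the smallest adjusted p of the class, a choice that favours groups without overlap, and theirs did not overlap. The groups of PSMA2, PSMA4, PSMA5 and PSMA6 did.

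Of the 7 constitutive beta ring genes 5 rose and 2 were not called. PSMB6, with the caspase-like site, was at 31.5, 28.4 and 32.7 CPM in Parental and at 50.3, 53.6 and 49.0 CPM in rABS, 1.65-fold higher (edgeR adjusted p = 4.27e-08). PSMB2 rose from 139, 152 and 149 CPM to 197, 205 and 201 CPM, 1.37-fold (edgeR adjusted p = 8.03e-07). PSMB3 rose from 238, 196 and 261 CPM to 287, 367 and 293 CPM, 1.36-fold (edgeR adjusted p = 6.44e-05). None of these groups overlapped, though rABS replicate 2 stood above the other rABS libraries for PSMB3. Of the other catalytic subunits 1 rose and 1 was not called. PSMB5, with the chymotrypsin-like site, rose from 61.5, 63.3 and 73.0 CPM to 81.7, 82.6 and 81.3 CPM, 1.24-fold (edgeR adjusted p = 0.000594). PSMB7, with the trypsin-like site, was at 154, 151 and 155 CPM in Parental and at 149, 146 and 140 CPM in rABS, which was not called (edgeR adjusted p = 0.337). PSME3, the nuclear activator that works without ubiquitin, rose from 158, 176 and 183 CPM to 296, 277 and 311 CPM, 1.71-fold (edgeR adjusted p = 4.78e-11).

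**Figure D2:**
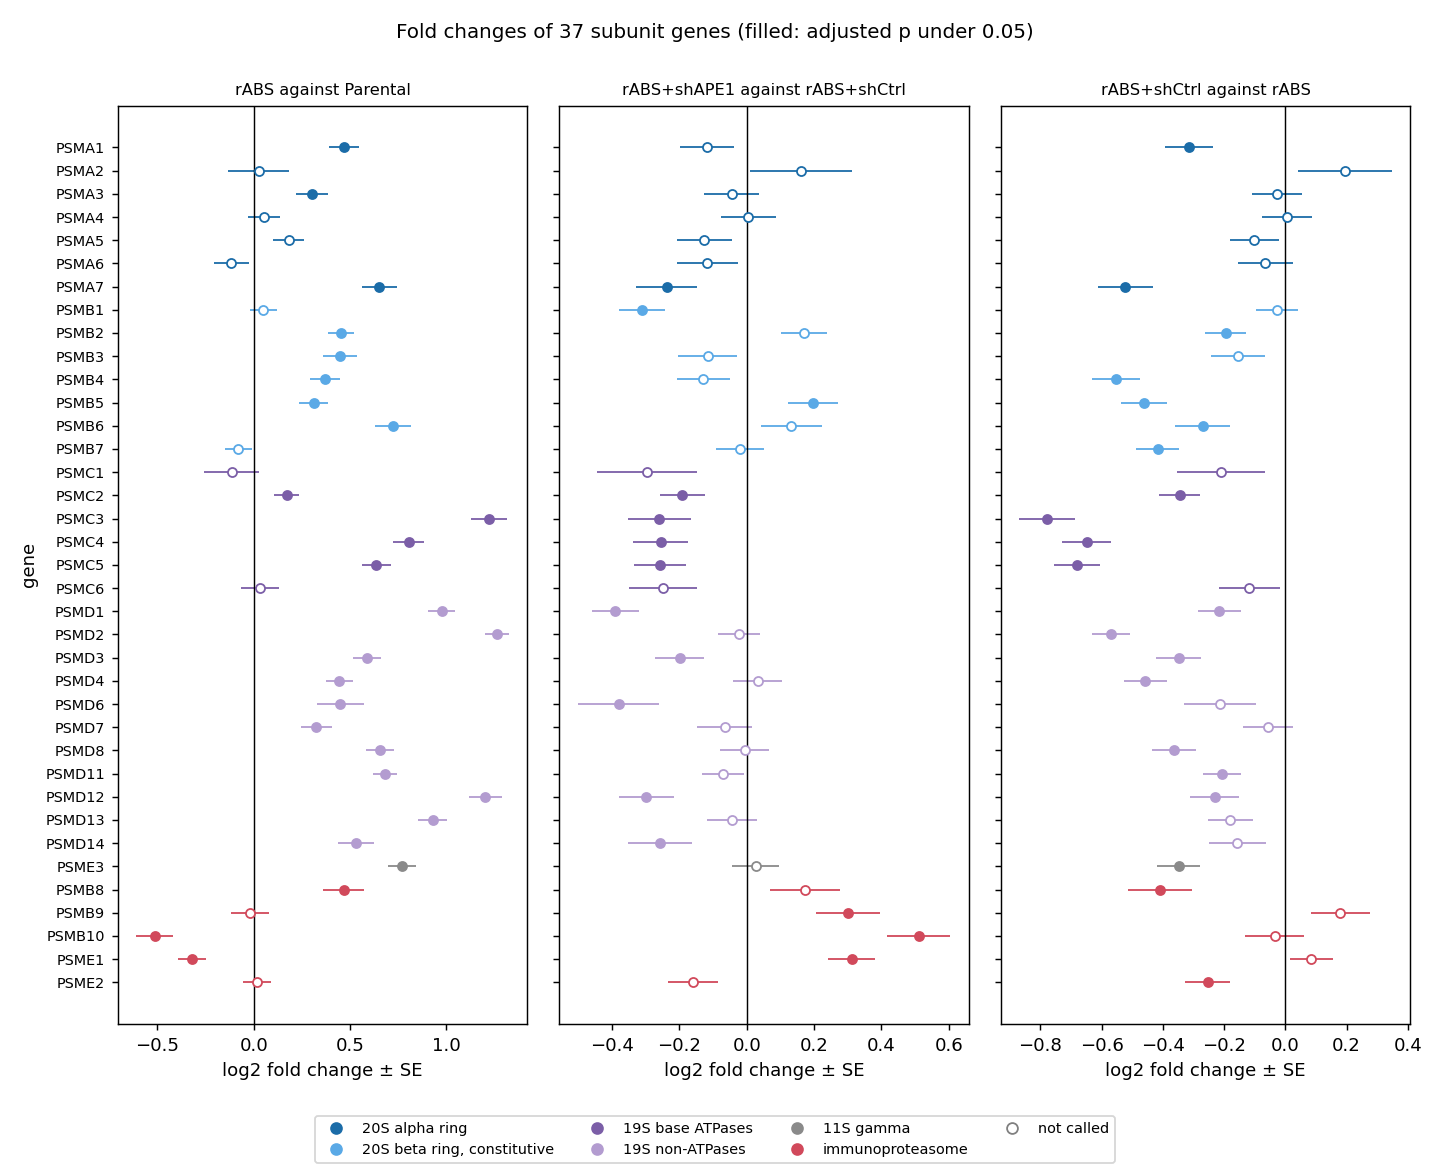
Log2 fold change with its standard error (horizontal axes) of the 37 genes (vertical axis) in the 3 comparisons, coloured by class, with filled points for adjusted p under 0.05. The called points of the 19S cap lie to the right in rABS against Parental, all called points lie to the left in rABS+shCtrl against rABS, and the points furthest right in rABS+shAPE1 against rABS+shCtrl are PSMB10, PSME1 and PSMB9.

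The immunoproteasome genes split in rABS. PSMB10, which replaces PSMB7, was at 35.2, 32.5 and 38.4 CPM in Parental and at 25.7, 25.2 and 23.3 CPM in rABS. All rABS libraries lay below all Parental libraries, a 1.43-fold fall (log2 fold change -0.52 with SE 0.10, edgeR adjusted p = 2.11e-05). PSME1, the alpha chain of PA28, fell from 106, 101 and 112 CPM to 80.4, 91.2 and 83.6 CPM, again without overlap and 1.25-fold (edgeR adjusted p = 0.000224). PSMB8, which replaces PSMB5, moved the other way, from 35.4, 28.4 and 34.9 CPM to 42.8, 54.0 and 39.3 CPM, 1.38-fold higher (edgeR adjusted p = 0.000255). Its highest value was again in rABS replicate 2. PSMB9, which replaces PSMB6, was at 23.4, 23.8 and 23.5 CPM in Parental and at 21.8, 26.4 and 21.6 CPM in rABS, and the groups overlapped (edgeR adjusted p = 0.876). PSME2, the beta chain of PA28, overlapped as well, at 101, 94.7 and 105 CPM against 95.6, 110 and 97.3 CPM (edgeR adjusted p = 0.874).

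The promoters of these 5 genes are shown because the genes are known as a co-regulated interferon set, of which PSMB8 rose here and PSMB10 and PSME1 fell. RefSeq windows on GRCh38.p14, from 250 bases before to 50 bases after the start of transcription, were found for 32 of the 37 genes, 39 windows in all, and are missing for PSMD4, PSMB7, PSMB1, PSMA7 and PSMB6. Capitals mark matches on either strand to the core of the interferon-stimulated response element (ISRE, GAAANNGAA), the gamma-activated site (GAS, TTCNNNGAA) or the antioxidant response element (TGACNNNGC). PSMB8 has 2 annotated starts, of which the one with an ISRE match is shown, and TAP1 is the gene transcribed away from PSMB9 across the same stretch.
PSMB10, chr16:67936801-67937100, minus strand: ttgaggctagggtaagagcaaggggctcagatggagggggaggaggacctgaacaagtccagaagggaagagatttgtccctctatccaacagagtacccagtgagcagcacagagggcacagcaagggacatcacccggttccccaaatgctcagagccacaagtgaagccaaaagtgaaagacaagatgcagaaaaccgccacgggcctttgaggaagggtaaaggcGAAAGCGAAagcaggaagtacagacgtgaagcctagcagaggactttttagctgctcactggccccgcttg
PSME1, chr14:24135944-24136243, plus strand: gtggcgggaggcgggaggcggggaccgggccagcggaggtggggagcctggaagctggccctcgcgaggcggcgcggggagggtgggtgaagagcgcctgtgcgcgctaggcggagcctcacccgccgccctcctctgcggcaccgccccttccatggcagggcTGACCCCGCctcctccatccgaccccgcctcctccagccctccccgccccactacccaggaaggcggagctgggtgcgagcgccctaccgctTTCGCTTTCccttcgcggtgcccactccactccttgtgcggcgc
PSME2, chr14:24146561-24146860, minus strand: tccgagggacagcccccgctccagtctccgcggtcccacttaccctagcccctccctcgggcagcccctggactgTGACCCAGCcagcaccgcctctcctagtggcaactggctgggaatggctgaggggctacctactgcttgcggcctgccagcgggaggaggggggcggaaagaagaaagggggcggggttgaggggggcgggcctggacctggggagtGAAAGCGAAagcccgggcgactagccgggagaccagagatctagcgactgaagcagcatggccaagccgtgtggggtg
PSMB8, chr6:32843998-32844297, minus strand: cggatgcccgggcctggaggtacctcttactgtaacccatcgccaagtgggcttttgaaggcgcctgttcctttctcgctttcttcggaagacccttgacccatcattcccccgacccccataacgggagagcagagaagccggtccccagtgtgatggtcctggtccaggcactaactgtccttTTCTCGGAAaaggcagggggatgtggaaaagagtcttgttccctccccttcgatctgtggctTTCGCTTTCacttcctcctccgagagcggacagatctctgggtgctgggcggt
PSMB9, chr6:32853942-32854241, plus strand: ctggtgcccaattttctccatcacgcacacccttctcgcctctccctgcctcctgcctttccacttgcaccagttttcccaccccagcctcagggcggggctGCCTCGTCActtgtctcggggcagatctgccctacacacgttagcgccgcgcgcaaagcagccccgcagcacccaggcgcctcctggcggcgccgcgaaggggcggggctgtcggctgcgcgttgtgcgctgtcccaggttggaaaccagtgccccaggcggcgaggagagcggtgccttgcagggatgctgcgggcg
TAP1, chr6:32853655-32853954, minus strand: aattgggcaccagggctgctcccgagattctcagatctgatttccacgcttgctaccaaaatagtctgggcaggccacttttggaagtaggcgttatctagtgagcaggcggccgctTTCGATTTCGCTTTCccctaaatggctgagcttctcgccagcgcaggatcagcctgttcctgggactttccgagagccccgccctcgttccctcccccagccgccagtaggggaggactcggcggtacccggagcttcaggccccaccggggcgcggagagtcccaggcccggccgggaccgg

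The ISRE core was present in 4 of the 6 immunoproteasome windows, in 7 of the 39 windows of all subunits (17.9%) and in 2847 of 35116 windows of all genes (8.11%). In PSMB10 and PSME2 it reads GAAAGCGAA, and in PSMB8 and PSME1 the same letters appear on the other strand as TTCGCTTTC. The PSMB9 window holds no match, while the TAP1 window, which overlaps it at one end, holds 2 that overlap each other. The 3 subunits outside the immunoproteasome with a match were PSMC2, PSMA4 and PSMB4. The GAS letters were in 17.9% of the subunits' windows against 7.66% of all windows. The antioxidant response element was in 10 of 39 windows (25.6%) against 13.3%, with 2 matches in PSMD3. PSMB10, PSME1, PSME2 and PSMB8 thus share the ISRE letters, and in rABS PSMB10 and PSME1 fell, PSMB8 rose and PSME2 was not called. A match to these letters is a description of the sequence and not evidence of binding.

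The survivors that carried the control hairpin were lower than the untransduced survivors for most constitutive subunits. In rABS+shCtrl against rABS, 21 of the 37 genes (56.8%) were lower and 0 higher, while 18.6% of all genes tested were called lower and 17.9% higher. The count of higher genes was also 0 at an unadjusted p under 0.05 in edgeR and with DESeq2 and limma-voom, and the largest positive log2 fold change was 0.19 (PSMA2, not called). The median log2 fold change was -0.22 for the 37 genes and 0.02 for all genes. Among the classes, 4 of 6 ATPases, 7 of 11 non-ATPases, 5 of 7 constitutive beta ring genes and 2 of 7 alpha ring genes fell. This comparison shares the rABS libraries with the one above and the control hairpin libraries with the one below. Transduction, time in culture and the hairpin vector cannot be told apart in it.

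The largest falls were in the ATPases. PSMC3 was at 84.5, 90.7 and 77.7 CPM in rABS and at 48.7, 49.97 and 48.9 CPM in rABS+shCtrl, 1.71-fold lower (edgeR adjusted p = 4.53e-08). PSMC5 fell to 73.2, 68.9 and 74.0 CPM, 1.60-fold (edgeR adjusted p = 1.28e-08). PSMC4 fell to 63.8, 57.1 and 59.4 CPM, 1.57-fold (edgeR adjusted p = 1.21e-07). In these 3 genes no library of rABS+shCtrl reached the lowest of rABS, and for PSMC5 and PSMC4 the levels came near those of Parental. PSMD2 fell to 434, 409 and 446 CPM, 1.48-fold (edgeR adjusted p = 1.17e-08), and stayed above the 255 to 274 CPM of Parental. PSMD4 fell to 102, 104 and 106 CPM, 1.37-fold (edgeR adjusted p = 5.90e-06). PSMD8 fell to 102, 103 and 103 CPM, 1.29-fold (edgeR adjusted p = 0.000179). PSMD4 thereby fell within the 96.8 to 110 CPM of Parental, and PSMD8 did not.

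In the core, PSMB4 fell from 122, 141 and 113 CPM to 83.8, 90.2 and 82.7 CPM, 1.47-fold (edgeR adjusted p = 1.15e-06). PSMA7 fell to 80.3, 77.3 and 84.3 CPM, 1.44-fold (edgeR adjusted p = 2.28e-05). PSMA1 fell to 102, 84.3 and 93.9 CPM, 1.24-fold (edgeR adjusted p = 0.00203). None of these groups overlapped. All 3 constitutive catalytic subunits fell. PSMB5 fell 1.38-fold to 58.9, 59.7 and 59.8 CPM (edgeR adjusted p = 1.13e-05). PSMB7, which had not been called in rABS against Parental, fell 1.34-fold to 113, 98.7 and 115 CPM (edgeR adjusted p = 1.96e-05). PSMB6 fell 1.21-fold to 43.0, 37.4 and 46.5 CPM (edgeR adjusted p = 0.0187), above every Parental library, a call lost without rABS replicate 2 (adjusted p = 0.0793) or rABS+shCtrl replicate 2 (adjusted p = 0.145). PSME3 fell 1.27-fold to 245, 223 and 226 CPM (edgeR adjusted p = 0.000217). Of the immunoproteasome genes, PSMB8 was 1.33-fold lower (edgeR adjusted p = 0.00211) at 34.2, 32.8 and 35.4 CPM, and PSME2 was 1.19-fold lower (edgeR adjusted p = 0.00779) at 86.8, 83.8 and 83.8 CPM. Both calls rested on rABS replicate 2, without which the adjusted p was 0.0509 for PSMB8 and 0.0826 for PSME2.

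With APE1 depleted, 3 of the 5 immunoproteasome genes rose, and the constitutive subunits either fell by less than 1.4-fold or were not called, except PSMB5. In rABS+shAPE1 against rABS+shCtrl, 4 of the 37 genes (10.8%) were higher and 11 (29.7%) lower, while 17.8% of all genes tested were called higher and 18.8% lower. The median log2 fold change was -0.12 for the 37 genes and -0.02 for all genes. In rABS+shCtrl against rABS, where neither group carried the APE1 hairpin, similar shares of all genes were called, 17.9% higher and 18.6% lower. Loss of APE1, other effects of the hairpin and differences between separately transduced cultures cannot be told apart in rABS+shAPE1 against rABS+shCtrl. All 11 genes that fell lie outside the immunoproteasome, where 1 of 32 rose. The count of 11 was sensitive to scaling and to single libraries. It was 6 with upper-quartile factors, 4 without rABS+shAPE1 replicate 2, 5 without rABS+shCtrl replicate 1 and 6 without rABS+shCtrl replicate 3. Of all genes tested (15805 to 16344), 2976 were called lower in the main fit and 2634, 2548, 2490 and 2579 in these settings, in that order. The count of 4 that rose was 2 without rABS+shCtrl replicate 1. Of all genes 2289 were called higher there, against 2808 in the main fit.

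PSMB10 was at 23.4, 26.2 and 22.7 CPM with the control hairpin and at 33.1, 34.1 and 36.1 CPM with the APE1 hairpin. The groups did not overlap, the rise was 1.43-fold (log2 fold change 0.51 with SE 0.09, edgeR adjusted p = 5.47e-05), and the depleted libraries lay within the range of Parental, 32.5 to 38.4 CPM. PSME1 rose from 94.0, 88.5 and 88.0 CPM to 115, 111 and 109 CPM, 1.24-fold (edgeR adjusted p = 0.000629). PSMB9 rose from 24.7, 26.9 and 27.2 CPM to 33.0, 32.7 and 31.4 CPM, 1.23-fold (edgeR adjusted p = 0.0120), above every library of the other 3 groups. Without rABS+shCtrl replicate 1 the adjusted p of PSMB9 was 0.0659. PSMB10 and PSME1 were called under all alternatives run, with log2 fold changes of 0.467 to 0.575 and 0.287 to 0.397. Against the untransduced survivors, PSMB10, PSMB9 and PSME1 were also higher in rABS+shAPE1, with log2 fold changes of 0.48, 0.48 and 0.40.

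The other pair of immunoproteasome genes did not pass the test. PSMB8 was at 34.2, 32.8 and 35.4 CPM with the control hairpin and at 40.2, 35.8 and 39.3 CPM with the APE1 hairpin (edgeR adjusted p = 0.210). PSME2 was at 86.8, 83.8 and 83.8 CPM and at 79.8, 69.9 and 77.8 CPM (edgeR adjusted p = 0.0963). The values did not overlap in either gene, which describes them and adds no support to a change. The share of all genes without overlap is not given here. Of the 2 chains of the PA28 ring, which assemble together, PSME1 was called higher and PSME2 was not called. Their log2 fold changes were 0.31 and -0.16.

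**Figure D3:**
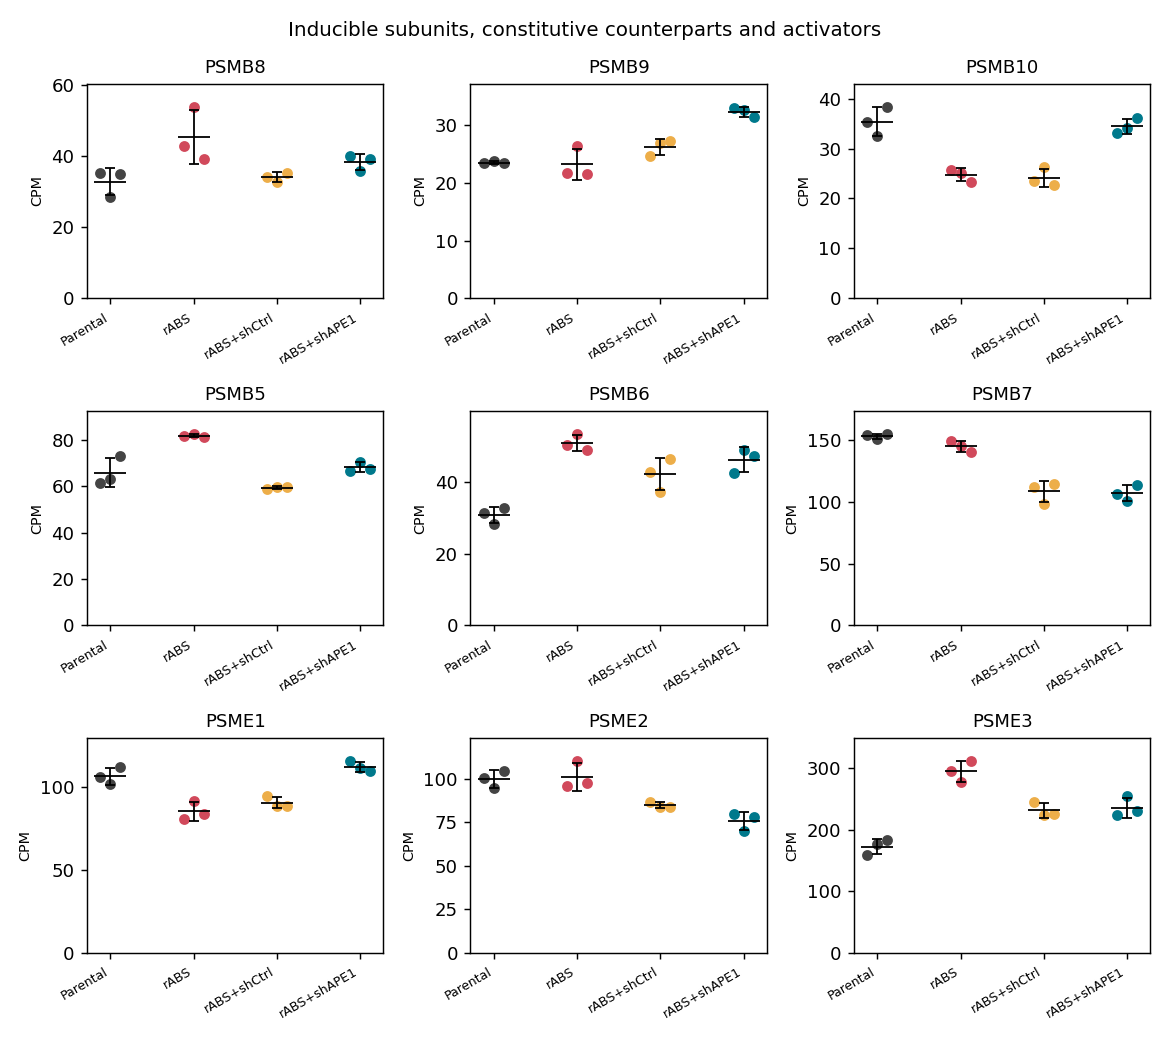
CPM (vertical axes, from 0) in the 4 groups for the inducible subunits PSMB8, PSMB9 and PSMB10, the constitutive subunits PSMB5, PSMB6 and PSMB7 that they replace, and the activator genes PSME1, PSME2 and PSME3. Points are libraries, bars are the mean and SD of 3. PSMB10 is low in rABS and rABS+shCtrl (22.7 to 26.2 CPM) and near its Parental level in rABS+shAPE1.

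The 19S cap held 9 of the 11 falls, 4 of 6 ATPases and 5 of 11 other subunits. That was 52.9% of its 17 genes, against 18.8% of all genes tested. By edgeR 0 of the 17 rose (0 also at an unadjusted p under 0.05, and with DESeq2 and limma-voom), against 17.8% of all genes. PSMD1 fell from 161, 151 and 151 CPM to 122, 108 and 123 CPM, 1.31-fold (edgeR adjusted p = 3.39e-05). PSMD12 fell from 67.5, 56.7 and 62.3 CPM to 50.9, 51.5 and 49.0 CPM, 1.23-fold (edgeR adjusted p = 0.00401). PSMD6, a lid subunit, fell from 24.0, 20.6 and 19.8 CPM to 17.2, 15.1 and 17.0 CPM, 1.3-fold (edgeR adjusted p = 0.0129), a call lost without rABS+shCtrl replicate 1 (adjusted p = 0.0949) or rABS+shAPE1 replicate 2 (adjusted p = 0.0700). These 3 did not overlap, and PSMD1 and PSMD12 nevertheless remained above all Parental libraries. PSMD2 was not called (edgeR adjusted p = 0.808), at 414, 435 and 418 CPM against 434, 409 and 446 CPM. Among the ATPases, PSMC5 fell 1.20-fold to 62.6, 55.1 and 62.9 CPM (edgeR adjusted p = 0.00744). PSMC4 fell 1.19-fold to 47.9, 51.0 and 52.1 CPM (edgeR adjusted p = 0.0134). PSMC2 fell from 160, 144 and 161 CPM to 139, 126 and 142 CPM, 1.14-fold (edgeR adjusted p = 0.0247). No library of the depleted cells reached the lowest control value in these 3 genes. Each call depended on single libraries. That of PSMC5 was lost without rABS+shAPE1 replicate 2 (adjusted p = 0.0561), and that of PSMC4 without rABS+shCtrl replicate 1 (0.0791) or rABS+shAPE1 replicate 1 (0.0728). That of PSMC2 was lost without rABS+shCtrl replicate 1 (0.0933) or 3 (0.120) or rABS+shAPE1 replicate 2 (0.127). It was also lost without a filter on low counts (0.0519) and with the 6 libraries alone (0.0503). The calls of PSMC2, PSMC3, PSMD3 and PSMD14 were lost with upper-quartile factors, at adjusted p of 0.0782, 0.0718, 0.112 and 0.0736. That of PSMC3 was also lost with DESeq2 (0.0505) and without any 1 of the rABS+shCtrl libraries or rABS+shAPE1 replicate 2 (0.0544 to 0.161). That of PSMD3 was also lost with RLE factors (0.0659), DESeq2 (0.0726) and without any 1 library except rABS+shCtrl replicate 1 (0.0632 to 0.127), and that of PSMD14 without rABS+shCtrl replicate 1 or 3 or rABS+shAPE1 replicate 1 or 2 (0.0581 to 0.173).

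In the core, 2 of 14 constitutive genes fell (14.3%) and 1 rose (7.14%), shares below the 18.8% and 17.8% of all genes tested. PSMB1 fell from 91.0, 85.2 and 87.4 CPM to 70.7, 73.0 and 68.8 CPM, 1.24-fold (edgeR adjusted p = 0.000565), having been at 83.8 to 92.0 CPM in all 9 libraries without the APE1 hairpin. PSMA7 fell from 80.3, 77.3 and 84.3 CPM to 74.8, 58.4 and 71.8 CPM, 1.18-fold (edgeR adjusted p = 0.0379). The call of PSMA7 was lost without rABS+shAPE1 replicate 2 (adjusted p = 0.283) or rABS+shCtrl replicate 1 (0.0805) or 3 (0.147). It was also lost with RLE or upper-quartile factors and with DESeq2 (0.0797). PSMB5 rose from 58.9, 59.7 and 59.8 CPM to 66.5, 70.7 and 67.3 CPM, 1.15-fold (edgeR adjusted p = 0.0392). That rise was lost without any 1 of the 6 libraries, with adjusted p of 0.0627 to 0.109. PSMB5 was lower in rABS+shAPE1 than in the untransduced survivors, by a log2 fold change of -0.26. PSMB2, at 176, 174 and 175 CPM and then 182, 215 and 194 CPM, was not called (edgeR adjusted p = 0.0503). PSMA5 and PSMA1, next in the alpha ring by adjusted p, overlapped between the groups and had log2 fold changes of -0.13 and -0.12. PSMB6, PSMB7 and PSME3 were not called, with log2 fold changes of 0.13, -0.02 and 0.03.

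The balance between inducible and constitutive subunits was read within each library as a ratio of counts per kilobase of exon. PSMB10 to PSMB7 was 0.184, 0.173 and 0.199 in Parental, 0.139, 0.139 and 0.134 in rABS, 0.167, 0.214 and 0.159 in rABS+shCtrl and 0.249, 0.272 and 0.255 in rABS+shAPE1. The depleted libraries were the 4 groups' highest, with no overlap with any other group. Relative to Parental, mean PSMB10 was not higher in them, at 34.4 against 35.4 CPM, and mean PSMB7 was lower, at 107 against 153 CPM. Mean PSMB7 was already at 109 CPM in rABS+shCtrl. PSMB9 to PSMB6 was 0.703, 0.792 and 0.679 in Parental and 0.410, 0.466 and 0.417 in rABS. It was 0.544, 0.681 and 0.554 in rABS+shCtrl and 0.735, 0.630 and 0.628 in rABS+shAPE1, which overlapped. The low ratio of PSMB9 in rABS came with a higher PSMB6 and a PSMB9 that was not called. PSMB8 to PSMB5 overlapped between all groups, at 0.424 to 0.618 over the 12 libraries. PSME1 to PSME2 was 1.28, 1.31 and 1.30 in Parental, 1.03, 1.01 and 1.05 in rABS, 1.32, 1.29 and 1.28 in rABS+shCtrl and 1.76, 1.93 and 1.71 in rABS+shAPE1. It was lowest in rABS and highest with APE1 depleted, without overlap with the other groups on either side. Between Parental and rABS+shAPE1, mean PSME1 was at 106 and 112 CPM and mean PSME2 at 99.95 and 75.8 CPM. These ratios are descriptions. With 3 libraries against 3 there are 20 arrangements, and an exact two-sided permutation test could not go below p = 0.1.

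**Figure D4:**
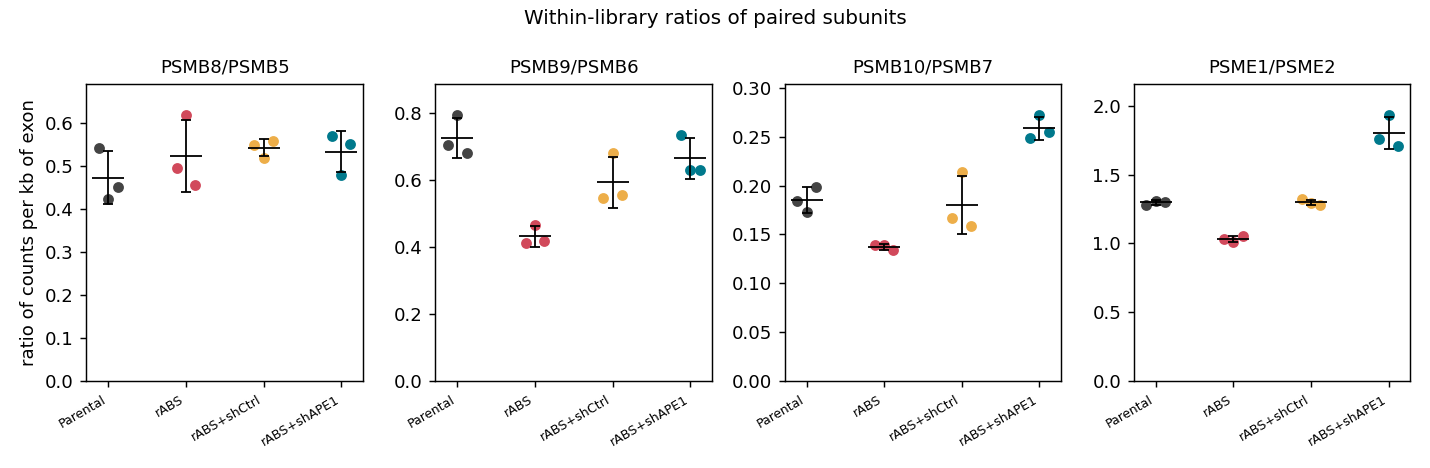
Within-library ratios of counts per kilobase of exon (vertical axes, from 0) for PSMB8 to PSMB5, PSMB9 to PSMB6, PSMB10 to PSMB7 and PSME1 to PSME2 in the 4 groups. Points are libraries, bars are the mean and SD of 3. In rABS+shAPE1 the ratio of PSMB10 to PSMB7 is 0.259 ± 0.012 and that of PSME1 to PSME2 is 1.80 ± 0.12, above the other groups.

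Subunits that are present in equal number in the particle differed widely in RNA level per exon length. In Parental the median over the 37 genes was 33.9 CPM per kilobase. PSMD3, a lid subunit, was highest at 480 CPM per kilobase and PSMB3 followed at 299.5, ahead of PSMB7 at 156.5. PSMD3 was highest in all 4 groups, at 722 CPM per kilobase in rABS, 567.5 in rABS+shCtrl and 494.5 in rABS+shAPE1. Both genes lie on chromosome 17 (GENCODE 29 positions on GRCh38) close to ERBB2, a receptor gene known to be amplified in OE33 cells. PSMD3, at chr17:39980797-39997960, is 250.4 kb from ERBB2, and PSMB3, at chr17:38752736-38764231, is 923.7 kb from it. Copy number was not measured here. PSMC1 was the lowest member in every group, at 2.75 CPM per kilobase in Parental and 1.79 in rABS+shAPE1. Length here was the merged length of a gene's annotated exons, 4448 bases for PSMC1, and not that of the RNA expressed. How far this length and the shared sequence described below set the order was not tested.

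**Figure D5:**
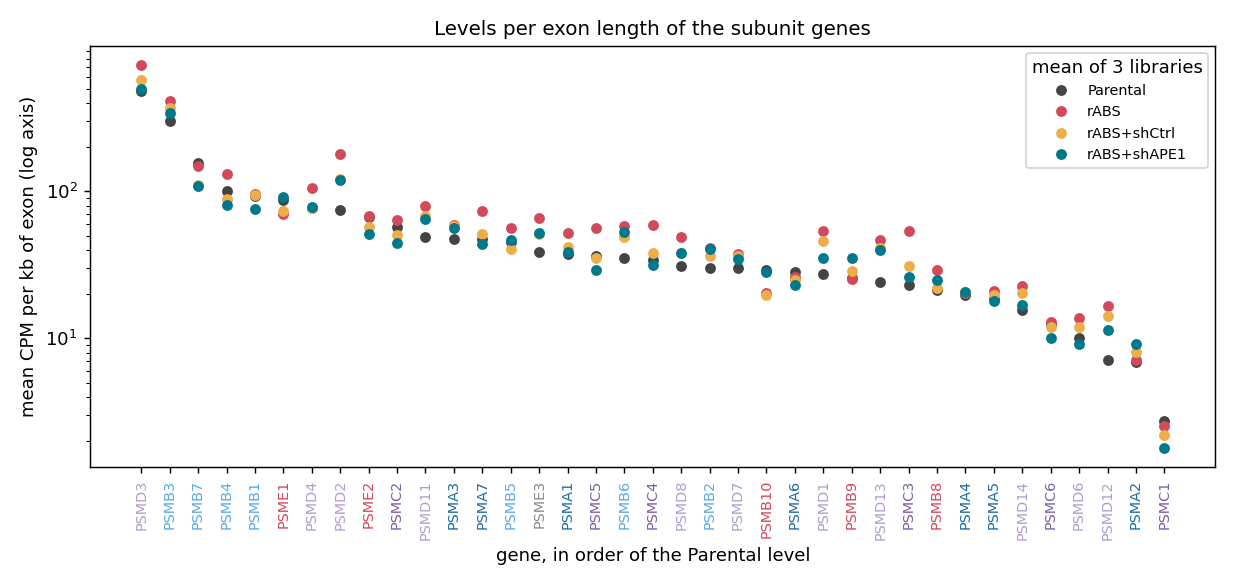
Mean CPM per kilobase of exon (vertical log axis) of the 37 genes (horizontal axis, in order of the Parental level, labels coloured by class) in the 4 groups, each point the mean of 3 libraries. PSMD3 and PSMB3 stand above all other genes in every group, and PSMC1 lies below all others.

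Some members share sequence with other genes. Of the exon bases of PSMC1, 82.1% are shared with NRDE2 on the other strand, and the table lists 13 pseudogenes named after PSMC1. PSMA2 and PSMA6 share 54.1% and 63.9% of their exon bases with other genes and have 3 and 4 such pseudogenes. How the counting dealt with strand and with reads of more than 1 best place is not given in the sources used here. PSMA1 shares 35.7% of its exon bases with AC018523.2 and PSMB10 30.7% with AC040162.1, both on the same strand. PSMB9 shares 15.1% and PSMB8 8.70% with PSMB8-AS1. PSMD7, PSMC5 and PSMD13 share 42.4%, 16.2% and 10.4% with genes on the other strand. Part of the signal of all these subunits may belong to the genes that overlap them, and how much was not tested. PSME1 shares 0.20% of its exon bases. Among the 28 genes that share under 10% of their exon bases, 21 rose and 1 fell in rABS, against 29.9% of all genes tested in each direction. In rABS+shCtrl against rABS 19 fell and 0 rose, against 18.6% and 17.9% of all genes. The count of rises there was also 0 at an unadjusted p under 0.05 by edgeR and with DESeq2 and limma-voom. With APE1 depleted 10 fell and 2 rose, against 18.8% and 17.8% of all genes. The 2 that rose were PSME1 and PSMB5, as PSMB10 and PSMB9 share more than 10% and are not among the 28.

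Genes that build and accompany the particle were read from lists of known factors. Of 9 assembly chaperones, 5 rose and 1 fell in rABS (29.9% of all genes tested were called in each direction), and 4 fell and 0 rose with APE1 depleted, where 18.8% of all genes fell and 17.8% rose (6 and 0 at an unadjusted p under 0.05 by edgeR, 0 rises also with DESeq2 and limma-voom). PSMG1, a chaperone of the alpha ring, rose 1.69-fold in rABS, while its partner PSMG2 fell 1.51-fold (edgeR adjusted p = 1.06e-06 and 1.58e-06). POMP, which starts beta ring assembly, rose 1.47-fold and PSMG3 1.54-fold. With APE1 depleted, PSMD9 fell from 6.08, 6.19 and 6.92 CPM to 3.21, 3.49 and 4.19 CPM, 1.77-fold (edgeR adjusted p = 0.000393). PAAF1, PSMD10 and PSMG2 fell 1.4-, 1.36- and 1.33-fold. Of the 7 other subunits and bound factors that could be tested, 4 rose and 3 fell in rABS, against 29.9% of all genes in each direction. The ubiquitin receptor ADRM1 and its deubiquitinase UCHL5 rose 2.15-fold and 2.36-fold. The inhibitor PSMF1 rose 1.56-fold. The genes that fell were ECPAS, 1.33-fold, the activator PSME4, 1.23-fold, and the small 19S subunit SEM1, 1.31-fold, the last pair named here after their values were seen.

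While most constitutive subunits rose in rABS, their regulator NFE2L1 fell. NFE2L1 was at 503, 465 and 500 CPM in Parental and at 156, 173 and 149 CPM in rABS, 3.07-fold lower (edgeR adjusted p = 6.03e-19). DDI2, the protease that activates NFE2L1, fell 1.60-fold and NFE2L2 3.26-fold, while VCP, the segregase that releases NFE2L1 from the membrane, rose 1.64-fold. Of the 5 genes of that list 3 fell and 1 rose, against 29.9% of all genes in each direction. NFE2L1 acts through processing of its protein, which was not measured here. With APE1 depleted, NFE2L1 and VCP rose 1.18- and 1.24-fold and DDI2 fell 1.28-fold. Against the untransduced survivors, NFE2L1 and DDI2 had log2 fold changes of the opposite sign, -0.033 and 0.101, and were not called.

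Of 10 interferon regulators that could be tested, 6 fell and 1 rose in rABS, against 29.9% of all genes in each direction. IRF1 was at 169, 157 and 175 CPM in Parental, at 60.2, 65.2 and 59.2 CPM in rABS, at 56.2, 74.2 and 60.02 CPM in rABS+shCtrl and at 95.7, 114 and 89.8 CPM in rABS+shAPE1. It was 2.71-fold lower in rABS than in Parental (edgeR adjusted p = 5.16e-15) and 1.57-fold higher with APE1 depleted than with the control hairpin (edgeR adjusted p = 6.28e-07). Like PSMB10 it was low in both groups of survivors without depletion, but unlike PSMB10 it did not come back into the Parental range. The receptor chain IFNGR2 fell 3.52-fold in rABS, JAK1 1.56-fold and STAT2 1.54-fold. With APE1 depleted 3 of the 10 rose and 3 fell, against 17.8% and 18.8% of all genes, with IFNGR1 1.38-fold and STAT2 1.32-fold higher. Against the untransduced survivors IFNGR1 was lower, with a log2 fold change of -0.41. The gene for interferon gamma itself had 0 counts in all 12 libraries, which allows up to 0.127 to 0.208 CPM per library (3 counts, counting error only).

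The class I presentation genes, which use the peptides of the immunoproteasome, rose for 8 of 12 and fell for 3 in rABS, against 29.9% of all genes in each direction. In rABS+shCtrl against rABS 9 fell and 0 rose by edgeR, against 18.6% and 17.9% of all genes (1 rose at an unadjusted p under 0.05, 0 with DESeq2 and limma-voom after adjustment). With APE1 depleted 7 rose and 0 fell relative to that control group, against 17.8% and 18.8% of all genes (1 fell at an unadjusted p under 0.05 by edgeR, 0 with DESeq2 and limma-voom after adjustment). TAP1 and TAP2, the peptide transporter genes, lie beside PSMB8 and PSMB9 on chromosome 6. TAP2 rose 1.60-fold in rABS and TAP1 fell 1.16-fold (edgeR adjusted p = 2.01e-08 and 0.0233), the latter with overlapping groups. With APE1 depleted TAP1 rose 1.33-fold and TAP2 1.35-fold (edgeR adjusted p = 0.000119 and 9.30e-05). Relative to the untransduced survivors both were called in neither direction, with log2 fold changes of -0.10 and -0.084. Both had fallen in rABS+shCtrl against rABS, 1.42-fold and 1.43-fold.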

How the data were processed

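The submitters' processing notes name Trimmomatic 0.36, STAR 2.5.2b, featureCounts and Subread 1.5.2, and the genome build GRCh38. The deposited values are whole-number counts per Ensembl gene, not normalized. Symbols came from a gene name table (56410 of 57500 genes) and positions and exon lengths from GENCODE 29 (56898 genes). Genes with low counts were removed (filterByExpr with the group labels, count minimum 10, total minimum 15), libraries were scaled with TMM and the counts were fitted with a robust quasi-likelihood model of all 12 libraries, 1 term per group (edgeR 4.0.16, limma 3.58.1, R 4.3.3). P-values were Benjamini-Hochberg adjusted over 15805 genes and called under 0.05. CPM use the scaled library sizes.

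The subunit genes and gene lists were chosen with earlier results of these data known. All subunits are accounted for. Values of every library are given for the inducible subunits, their counterparts, PSME3 and, per comparison, the 3 genes of each class with the smallest adjusted p. For genes picked by adjusted p, a lack of overlap between groups describes the values and adds no support to the call. The share of all genes without overlap is not given here. Of the other lists, up to 4 called genes per comparison with the smallest adjusted p could be named, and some of these are not reported here.

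The procedure was run on simulated counts with the same spread for every gene and far fewer changed genes than were called here. It recovered 38 of 50 genes changed 1.5-fold (76%), 96 of 100 changed 2-fold and 50 of 50 changed 4-fold. Of its 191 calls 7 were false. Changes below 1.5-fold, as many subunits had, were not simulated. Alternatives were other scalings, other filters, DESeq2 1.42.0, limma-voom, the 6 libraries of a comparison alone, a replicate block, leaving out each library, and rABS as the control of rABS+shAPE1.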

Additional observations from a re-analysis of the deposited data

How the results depend on the processing

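All counts for rABS against Parental kept within 1.5 times of their value under every alternative run. In rABS+shAPE1 against rABS+shCtrl the count of subunits that fell, 11, was 6 with upper-quartile factors and 4 to 10 with 1 library left out. With rABS as the control it was 26 (25 outside the immunoproteasome). Of all genes, 2976 were called lower in the main fit, 2634 with upper-quartile factors and 2490 to 2743 with 1 library left out. With rABS as the control 4138 of 15805 were called lower. The count of subunits that rose, 4, was 2 to 4 with 1 library left out. All genes called higher numbered 2808 in the main fit and 2289 to 2547 with 1 library left out. The single rise outside the immunoproteasome (PSMB5) became 2 with RLE or upper-quartile factors, the stricter filter, DESeq2 or the 6 libraries alone, 0 without a filter, with the replicate block or with rABS as the control, and 0 to 1 with 1 library left out. The immunoproteasome genes that fell numbered 0, and 1 with rABS as the control. In rABS+shCtrl against rABS, leaving out 1 library gave 0 to 1 immunoproteasome genes, and 0 to 1 of all subunits, higher, and 0 to 2 immunoproteasome genes lower, the extremes being without rABS replicate 2. With 1 library left out there, 2228 to 2551 of all genes were called higher and 2422 to 2649 lower. In the main fit these counts were 2832 and 2935. The cause of these shifts was not tested.

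With rABS as the control of rABS+shAPE1, the log2 fold change changed sign, among genes called with either control, for PSMB5 (-0.26), PSMD4 (-0.43), PSME3 (-0.32), PSMF1 (-0.14), TAP1 (-0.10), TAP2 (-0.084), CALR (-0.17), IFNGR1 (-0.41), NFE2L1 (-0.033) and DDI2 (0.10). PSMB8 (-0.24), PSMB6 (-0.14) and PSMB2 (-0.026) also changed sign and were called with neither control.

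Same-numbered libraries did not deviate together (correlations of -0.167 to 0.067), so the numbers were not taken as pairs. Under the replicate block 26 subunits rose in rABS, and 4624 of the 15805 genes tested. It gave 10 subunits lower and 3 higher with APE1 depleted, and 2836 and 2649 of all genes. In rABS+shCtrl against rABS 21 subunits fell, and 2781 of all genes. The block ended the calls of PSMB5 (adjusted p = 0.0561) and PSMD3 (0.0501) with APE1 depleted. Libraries of 15736087 to 23010377 counts limit the low genes most, such as PSMC1 and PSMA2, whose standard errors in log2 were 0.14 to 0.16.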

Other observations

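Among 11 ubiquitin and shuttle genes, 4 rose (36.4%) and 3 fell (27.3%) in rABS, shares near the 29.9% of all genes called in each direction. With APE1 depleted 5 rose and 3 fell, against 17.8% and 18.8% of all genes. SQSTM1, an autophagy receptor for ubiquitin chains, was at 1077, 894 and 1069 CPM in Parental and at 467, 525 and 448 CPM in rABS, 2.11-fold lower (edgeR adjusted p = 1.70e-13). The ubiquitin-activating enzyme UBA1 and the shuttle UBQLN4 rose 1.37- and 1.76-fold. With APE1 depleted the shuttles split: UBQLN1 fell from 251, 235 and 238 CPM to 159, 168 and 165 CPM, 1.47-fold (edgeR adjusted p = 3.38e-08), UBQLN2 fell 1.44-fold, and UBQLN4 rose 1.25-fold. UBQLN1 and UBQLN2 had not been called in rABS against Parental.

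The tissue-specific core subunits were at or near 0 counts. PSMA8, the alpha subunit of the testis, had 0 counts in all 12 libraries, and PSMB11, the beta subunit of the thymus, had 2 counts in 1 library.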
